A study of Mus musculus with 30 samples.

Results

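A set of 10 genes that direct mitochondrial biogenesis was followed through a metabolic switch in mouse embryonic stem cells (ESCs). They were picked by their known roles, though with earlier results of these data already known. They are the coactivators Ppargc1a and Ppargc1b, the transcription factors Esrra, Nrf1 and Gabpa, and the mitochondrial factors Tfam, Tfb1m, Tfb2m, Polg and Polrmt. All 10 were found, by Ensembl identifier, among the 52630 genes of the time-course table and the 55487 genes of the passage table, and 9 of them passed the filter on low counts in both. The exception was Ppargc1a.

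The cells were E14tg2a, a wild-type mouse ESC line, so every library comes from 1 line. In the time course they were kept in Serum/LIF (labelled 0 h, 3 libraries) or moved for 3, 9 or 24 h (3 libraries each) to EMM (Enhanced Metabolic Media), made like Serum/LIF but with D-galactose and without D-glucose or pyruvate. In the passage experiment they were grown for 10 (P10) or 20 (P20) passages in Serum/LIF, in EMM or in 2i/LIF, a medium with inhibitors of MEK and of GSK3 (3 libraries per medium and passage, 18 in all). LIF was present in every group, and libraries are numbered below as in their sample titles. Total counts per library ran from 24074132 to 35301962 in the time course and from 6944904 to 27912928 in the passage experiment. All 8 ESC markers examined (Pou5f1, Sox2, Nanog, Esrrb, Klf4, Zfp42, Tfcp2l1 and Dppa5a) were detected in every group, summing to between 4188 and 7714 CPM, read counts scaled by library size.

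Mitochondrial biogenesis is run from the nucleus. The PGC-1 coactivators Ppargc1a and Ppargc1b do not bind DNA themselves but dock on factors such as ERR alpha (Esrra), NRF1 and GABP (whose DNA-binding subunit is Gabpa), and these switch on nuclear genes for the respiratory chain and for the upkeep of mitochondrial DNA. Inside the organelle TFAM packages the mitochondrial genome, TFB2M and the polymerase POLRMT start its transcription, TFB1M methylates ribosomal RNA, and POLG is the catalytic subunit of the replicating polymerase. ESCs are known for small, immature mitochondria and for a strong use of glycolysis.

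Some of the members' own promoters hold letters that match the motifs of NRF1, GABP or YY1, and the stretches with such a match are shown first so that the letters behind each match can be read beside the values. Windows of 300 bases, 250 before and 50 from the RefSeq transcript start (RefSeq, GRCm38.p6), were at hand for 9 of the 10 members and not for Ppargc1b. They were searched on both strands for the NRF1 core GCGCANGCG, the GABP core CCGGAAG, the ERR half-site AAGGTCA and the YY1 core AAGATGGCG. Each stretch below is 30 bases on the strand of the gene, 5′ to 3′, with the match in capitals.
Tfam, GABP match: tcctgccgcggaCCGGAAGtccgggcttcc
Polg, GABP match: ggaggacctcacCCGGAAGtccctctgcac
Polrmt, GABP match: accctaagagcgCTTCCGGcagtcgcagaa
Gabpa, GABP match: ggagggtaagtgCTTCCGGgtccctcagct
Polrmt, 2 overlapping NRF1 matches: gcaggcggCGCGTGCGCGTGCGCactgcgg
Tfb2m, NRF1 match: gctaggtcgttCGCATGCGCcattcgtaat
Esrra, NRF1 match: cacaggaggccGCGCACGCGtgtgtatcga
Gabpa, YY1 match: agctaagactcCGCCATCTTtcctacactt

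The Esrra stretch lies at chr19:6921931-6921960 on the minus strand, and those of Gabpa at chr16:84835019-84835048 and chr16:84835045-84835074 on the plus strand. The Tfam stretch lies at chr10:71238074-71238103 on the minus strand and its match begins 47 bases before the RefSeq start. The Polg stretch is at chr7:79466294-79466323 (minus strand, match from 38 bases before the start), and the Tfb2m stretch at chr1:179546246-179546275 (minus strand, match from base 13 of the transcript). For Polrmt the GABP match lies within chr10:79746607-79746636 and the NRF1 matches within chr10:79746565-79746594, across the start itself. In GENCODE M21 the annotated gene begins upstream of the RefSeq start by 236 bases for Tfam, 89 for Polg and 199 for Gabpa, so that those matches fall inside the annotated gene. A GABP match was present in 8.86% of all 32851 mouse promoter windows, an NRF1 match in 6.25%, an ERR half-site in 4.72% and a YY1 match in 1.40%. No match to any of the 4 was found in the windows of Nrf1, Tfb1m and Ppargc1a, and none of the 9 members held the ERR half-site. These are matches of letters and not measured binding.

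The coordinates of each gene (GRCm38, GENCODE M21) are Ppargc1a chr5:51454250-51567726, Ppargc1b chr18:61298136-61400431, Esrra chr19:6910977-6921813, Nrf1 chr6:30047988-30153458, Gabpa chr16:84834925-84863779, Tfam chr10:71225464-71238280, Tfb1m chr17:3519256-3557781, Tfb2m chr1:179528055-179546267, Polg chr7:79446231-79466362 and Polrmt chr10:79736123-79746581.

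Levels were compared between genes only per length, as CPM per kb of annotated exon, and only within an experiment because the tables were counted differently. In Serum/LIF at 0 h Gabpa stood highest at 30.5 ± 1.54 CPM per kb (SD, n = 3) and was followed by Tfam at 25.3 ± 0.515. Polrmt (16.0 ± 0.334), Polg (13.7 ± 0.371) and Nrf1 (8.36 ± 0.461) came next, then Tfb1m (6.04 ± 0.323) and Esrra (5.85 ± 0.816), whose libraries overlapped. Tfb2m (3.67 ± 0.235) and Ppargc1b (1.58 ± 0.167) were low. Ppargc1b kept the 9th place in every group but 1. At 3 h of EMM it reached 4.93 ± 0.258 CPM per kb and 7th place, with libraries overlapping those of Tfb1m (5.35 ± 0.320) above it.

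In the passage experiment Gabpa and Tfam again stood highest in each medium, between 18.9 and 29.1 CPM per kb as group means, and their libraries overlapped in P10 EMM. Ppargc1b was 9th in all 6 groups, from 0.740 ± 0.125 in P10 Serum/LIF to 2.30 ± 0.449 in P20 2i/LIF (SD, n = 3). Within this experiment Tfb2m ranked above Tfb1m in each group.

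**Figure D1:**
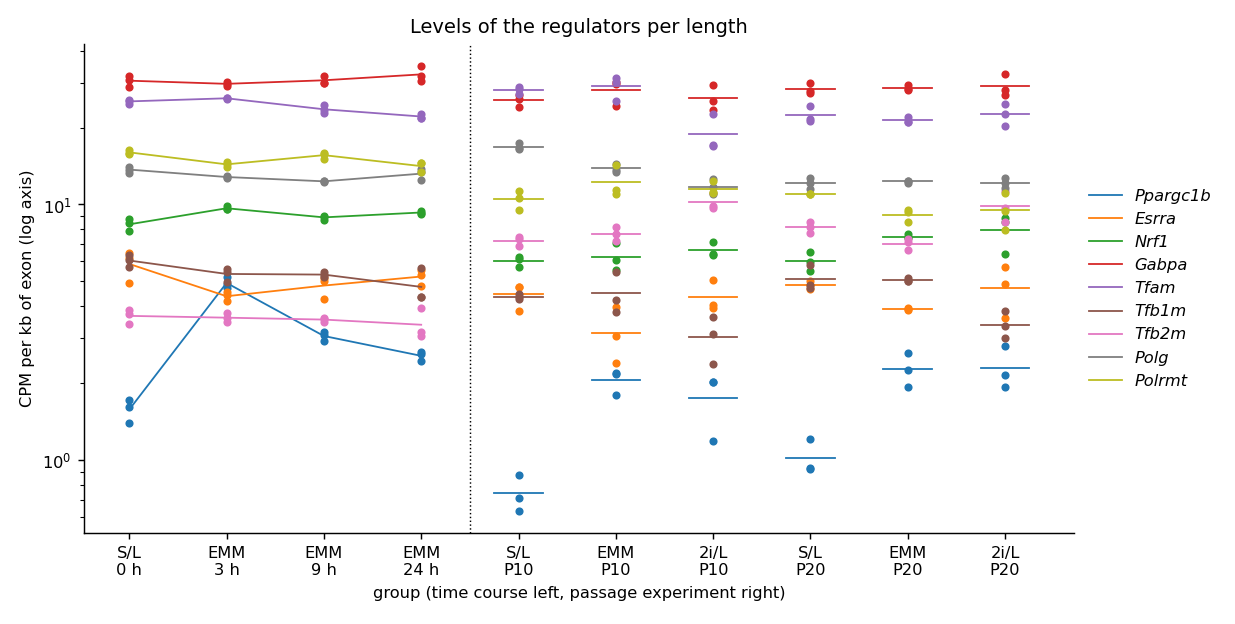
Levels of 9 members in CPM per kb of exon (log axis) in the 10 groups, the time course left of the dotted line and the passage experiment right of it; points are libraries, and lines join or mark group means. Gabpa and Tfam lie on top in all groups, and Ppargc1b is lowest except at 3 h of EMM.

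Ppargc1a, the PGC-1 coactivator best known from muscle, liver and brown fat, was close to absent from the counts. It was at 0 in 11 of 12 libraries of the time course, with 1 count in the remaining library, Serum/LIF library 2. In the passage experiment 11 of 18 libraries were at 0 and 16 counts were found in all, the highest being 7 counts in P10 2i/LIF library 3. A count of 0 allows up to 3 counts, which corresponds to 0.0876 to 0.123 CPM in the libraries of the time course and 0.107 to 0.451 CPM in those of the passage experiment. Ppargc1a was therefore not tested, and no change in it was detectable at this depth.

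The time course asks how the regulators respond when glucose and pyruvate are withdrawn. Ppargc1b rose sharply and early. Its normalized counts were 203.4, 189.5 and 164.5 in Serum/LIF, 614.4, 575.8 and 554.3 after 3 h of EMM, 365.1, 373.4 and 343.1 after 9 h and 311.3, 287.0 and 306.3 after 24 h. No EMM library overlapped the Serum/LIF libraries at any time, and the 3 h libraries stood above all others. Tested by edgeR's quasi-likelihood method, with p adjusted by Benjamini-Hochberg over all genes and a threshold of 0.01 here and below, the log2 fold change against Serum/LIF was 1.65 ± 0.08 (SE; adjusted p = 7.01e-10) at 3 h, that is 3.13-fold, 0.96 ± 0.08 (adjusted p = 2.21e-07) at 9 h and 0.70 ± 0.08 (adjusted p = 4.88e-06) at 24 h. The 3 comparisons share the Serum/LIF libraries. No Serum/LIF libraries are labelled 3, 9 or 24 h, so the medium and the time since its change cannot be told apart. Compared directly, Ppargc1b was lower at 24 h than at 3 h, with a log2 difference of −0.95 ± 0.07 (adjusted p = 1.12e-07).

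Esrra, the nuclear receptor that PGC-1 proteins coactivate, moved the other way at 3 h. It had 802.9, 835.1 and 637.9 normalized counts in Serum/LIF and 571.1, 588.1 and 542.2 at 3 h, and the groups did not overlap. Its log2 fold change was −0.42 ± 0.10 (SE; adjusted p = 0.00201). At 9 h it was −0.28 ± 0.09 (adjusted p = 0.0226) and at 24 h −0.16 ± 0.09 (adjusted p = 0.158), neither past the threshold of 0.01. The call at 3 h was lost (adjusted p between 0.0120 and 0.0153) without Serum/LIF library 1, Serum/LIF library 2 or EMM 3 h library 3. Esrra shares 73 exon bases with Trmt112 on the opposite strand, whose log2 fold change at 3 h was −0.58 ± 0.36 (adjusted p = 0.214), and whether strand was used in counting is not given in the sources used here.

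Nrf1 encodes an activator of respiratory-chain genes and of Tfam. It went from 2581, 2656 and 2385 normalized counts in Serum/LIF to 2909, 2910 and 2990 at 3 h. The log2 fold change was 0.21 ± 0.04 (adjusted p = 5.73e-04) at 3 h and 0.15 ± 0.04 (adjusted p = 0.00441) at 24 h, with no overlap of the groups at either time, while at 9 h it was 0.09 ± 0.04 (adjusted p = 0.0757). The 24 h call was lost (adjusted p between 0.0104 and 0.0176) without Serum/LIF library 3, without EMM 24 h library 1 and in a fit of those 2 groups alone. Gabpa did not pass at any time, with normalized counts between 4850 and 5839 over all 12 libraries. Its 95% interval at 24 h ran from −0.03 to 0.19 on the log2 scale, and it shares 397 exon bases with Atp5j on the opposite strand.

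Among the factors that act inside mitochondria every call of the time course was a fall, and a small one. Tfam had 3244, 3375 and 3339 normalized counts in Serum/LIF, 3401, 3425 and 3415 at 3 h, 3065, 3226 and 2984 at 9 h and 2969, 2870 and 2851 at 24 h. All 3 libraries of 24 h were below every library of Serum/LIF and of 3 h. The log2 fold change at 24 h was −0.20 ± 0.04 (SE; adjusted p = 3.40e-04) against Serum/LIF and −0.24 ± 0.04 (adjusted p = 7.81e-05) against 3 h.

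Tfb1m fell by 0.34 ± 0.09 on the log2 scale at 24 h (adjusted p = 0.00380), from 606.7, 649.5 and 674.8 normalized counts to 462.1, 599.1 and 461.5. The groups did not overlap, though EMM 24 h library 2 was close to Serum/LIF library 1, and the call was lost (adjusted p between 0.0158 and 0.0292) without Serum/LIF library 2 or 3, without EMM 24 h library 1 or 3 and in a fit of those groups alone. Tiam2, which shares 142 exon bases with Tfb1m on the opposite strand, was lower at 24 h as well, at −0.45 ± 0.11 on the log2 scale (adjusted p = 0.00303), at 135 ± 5.43 normalized counts against 185 ± 10.9 (SD, n = 3). What part the shared bases have in the Tfb1m value was not tested. Tfb2m did not pass at any time, and its 12 libraries lay between 252.3 and 326.8 normalized counts.

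Polrmt, the mitochondrial RNA polymerase, had 2172, 2205 and 2264 normalized counts in Serum/LIF, 2029, 1990 and 1943 at 3 h and 2004, 1850 and 2014 at 24 h. Its log2 fold change was −0.16 ± 0.04 (adjusted p = 0.00670) at 3 h and −0.18 ± 0.04 (adjusted p = 0.00215) at 24 h, and at 9 h its groups overlapped. The 3 h call was lost without any 1 of the 6 libraries compared, with the size factors or the Wald test of DESeq2 and with no filter on low counts (adjusted p between 0.0105 and 0.0731). That at 24 h was lost (adjusted p between 0.0123 and 0.0266) without Serum/LIF library 2 or 3, without EMM 24 h library 2, with no filter and in a fit of the 2 groups alone. Polg, the replicative polymerase, passed only at 9 h, with 4232, 4339 and 4467 normalized counts in Serum/LIF and 3930, 3870 and 3932 at 9 h. Its log2 fold change there was −0.15 ± 0.04 (adjusted p = 0.00395), against −0.10 ± 0.04 at 3 h and −0.05 ± 0.04 at 24 h. The 9 h call was lost without Serum/LIF library 2 or 3, without any 1 EMM 9 h library, with no filter and in a fit of the 2 groups alone (adjusted p between 0.0157 and 0.0491). Fanci shares 921 exon bases with Polg on the opposite strand and was higher at 9 h by 0.25 ± 0.05 (adjusted p = 2.78e-04).

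Markers of other cell types moved in the time course. The sum of 7 fibroblast markers (Col1a1, Col1a2, Col3a1, Dcn, Lum, Postn and Thy1) was 61.1 to 64.0 CPM in Serum/LIF, 59.3 to 69.3 CPM at 3 h, 56.2 to 59.7 CPM at 9 h and 42.6 to 50.2 CPM at 24 h, below Serum/LIF in every library of 9 and 24 h. The sum of 6 primitive endoderm markers (Gata4, Gata6, Sox17, Sox7, Pdgfra and Foxa2) went from 7.88 to 10.0 CPM in Serum/LIF to 11.8 to 12.5 CPM at 3 h, 13.7 to 16.1 CPM at 9 h and 18.7 to 19.6 CPM at 24 h, with no overlap with Serum/LIF, and Sox7 made up 10.1 to 10.8 CPM of it at 24 h. At 3 h Sox7 was at 5.99 to 6.20 CPM against 2.80 to 3.65 CPM in Serum/LIF. Gata4 (3.11 to 3.62 against 3.48 to 4.10 CPM) and Pdgfra (0.522 to 0.789 against 0.682 to 0.779 CPM) overlapped Serum/LIF at 3 h. The sum of 6 trophectoderm markers (Cdx2, Elf5, Tfap2c, Krt8, Krt18 and Eomes) was 188 to 202 CPM in Serum/LIF, 246 to 290 CPM at 3 h, 286 to 307 CPM at 9 h and 320 to 329 CPM at 24 h. Krt8 and Krt18 carried most of that sum, Elf5 was at or under 3 counts throughout, and Cdx2 went the other way, from 1.97 to 2.87 CPM in Serum/LIF to 0.939 to 1.5 CPM at 24 h. Tfap2c was below Serum/LIF at 3 h, at 35.8 to 36.3 CPM against 43.2 to 43.4 CPM, and above it at 9 and 24 h. The part of these markers in the members' values was not tested. Among replicates, EMM 24 h library 1 and EMM 9 h library 3 stood apart within their groups. The chi-square of gene counts per degree of freedom was 15.8 and 14.1 for the pairs with the former and 3.14 for the remaining pair, and 11.9 and 13.0 for the pairs with the latter and 2.69 for the remaining pair. Pairs of Serum/LIF libraries, the control of the comparisons above, were at 11.3 to 13.8 throughout. Those of EMM 3 h were at 2.22 to 2.91. Without EMM 24 h library 1 the log2 fold changes at 24 h were 0.69 for Ppargc1b, −0.20 for Tfam and −0.18 for Polrmt, all still called, and 0.16 for Nrf1 and −0.27 for Tfb1m, no longer called. Without EMM 9 h library 3 those at 9 h were 1.01 for Ppargc1b, still called, and −0.14 for Polg, no longer called. Against 3 h, the 24 h values without EMM 24 h library 1 were −0.96 for Ppargc1b and −0.25 for Tfam, both still called.

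**Figure D2:**
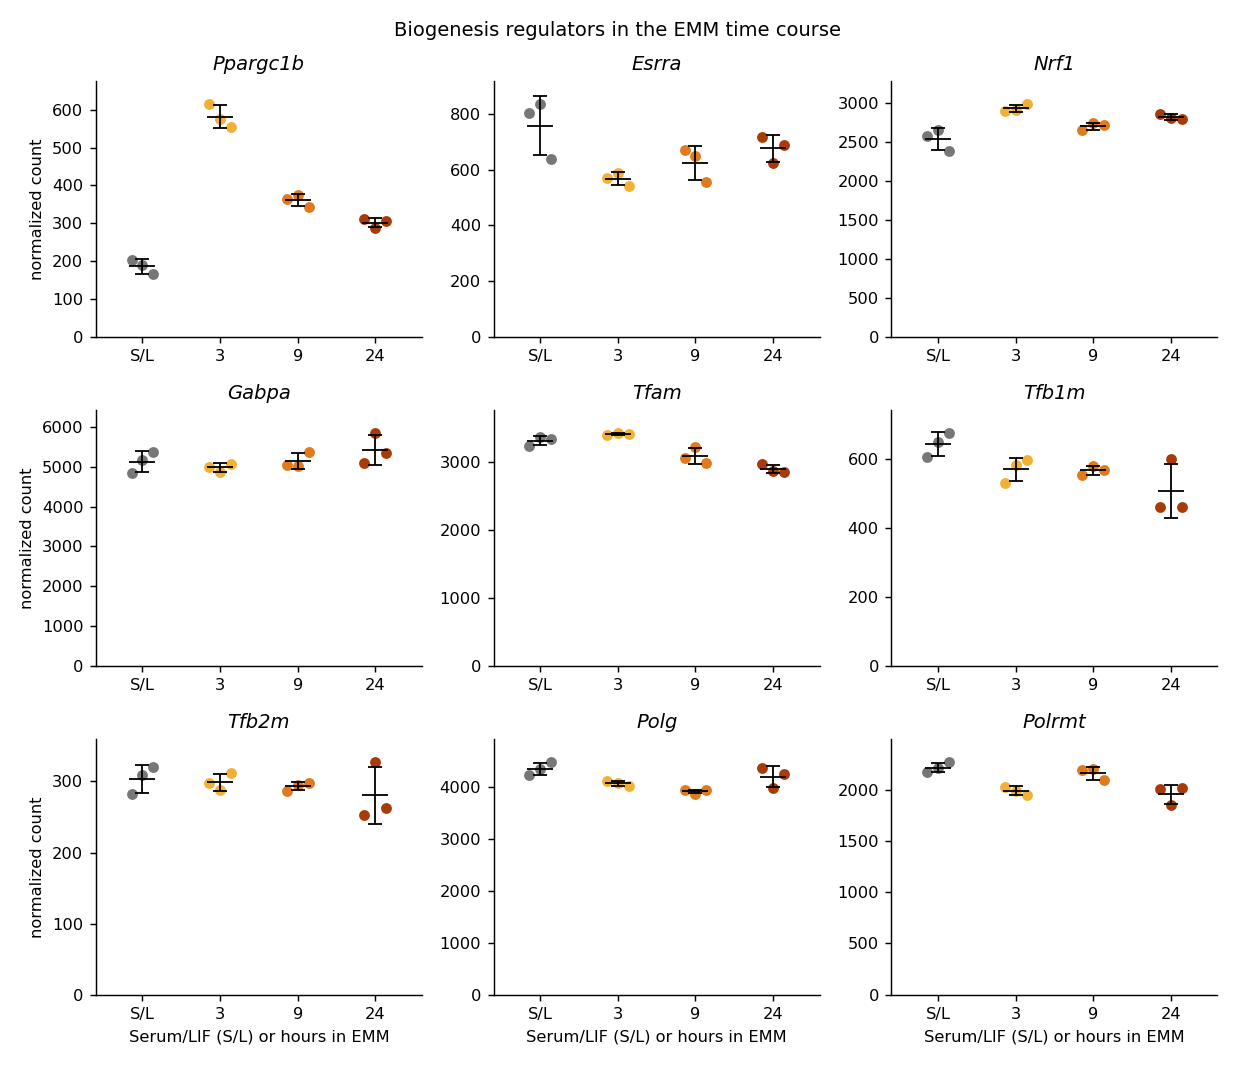
Normalized counts of 9 members in each of the 12 time-course libraries (points, in title order), with the group mean and SD (n = 3) in black; each vertical axis starts at 0. Ppargc1b stands out at 3 h with 554.3 to 614.4 counts against 164.5 to 203.4 in Serum/LIF, and the other genes move by small steps.

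The members' calls are set beside those over all genes, since a share near the background says nothing particular about them. At 3 h, 2 of 9 tested members were higher and 2 lower, against a background of 16.3% higher and 18.2% lower over the whole table. At 9 h, 1 was higher and 1 lower, against 18.5% and 19.7% of all genes. At 24 h, 2 were higher and 3 lower, against 21.8% and 22.2%, and the median log2 fold change of the members was −0.12 where that of all genes was 0.00. Between 24 h and 3 h, 0 members were higher and 2 lower, against 20.8% and 19.2% of all genes. One of the 9 reached a change above 2-fold in any of these comparisons, and that was Ppargc1b.

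The passage experiment asks whether the regulators differ between cells settled in each medium. The first 2i/LIF library stood apart at both passages. Between replicates, the chi-square of gene counts per degree of freedom was 64.4 and 55.5 for the pairs with P20 2i/LIF library 1 and 16.2 for the remaining pair, and 22.8 and 33.6 for the pairs with P10 2i/LIF library 1 and 7.04 for the remaining pair. Values of the members' 2i/LIF calls without these libraries are given beside them. Ppargc1b was again the member with the largest difference from Serum/LIF. Its normalized counts were 44.4, 54.6 and 39.3 in P10 Serum/LIF, 135.8, 112.2 and 135.2 in P10 EMM and 125.6, 126.3 and 74.1 in P10 2i/LIF. At P20 they were 57.8, 75.0 and 57.6 in Serum/LIF, 163.7, 139.9 and 120.4 in EMM and 133.9, 174.4 and 120.7 in 2i/LIF. Serum/LIF libraries were below all EMM libraries at both passages, with P10 2i/LIF library 3 the closest to them among the 2i/LIF libraries.

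The log2 fold change of Ppargc1b between EMM and Serum/LIF was 1.47 ± 0.23 (SE; adjusted p = 3.43e-05) at P10 and 1.14 ± 0.21 (adjusted p = 3.63e-04) at P20. Between 2i/LIF and Serum/LIF it was 1.21 ± 0.23 (adjusted p = 1.69e-04) and 1.17 ± 0.22 (adjusted p = 1.61e-04), and without 2i/LIF library 1 it was 1.08 and 1.21. EMM and 2i/LIF did not differ past the threshold, and the 95% interval of that log2 difference ran from −0.19 to 0.71 at P10 and from −0.46 to 0.39 at P20. Without 2i/LIF library 1 those intervals ran from −0.12 to 0.88 and from −0.55 to 0.39. The comparisons at a passage share their groups. The EMM effect against Serum/LIF at P20 minus that at P10 was −0.33 ± 0.31 (adjusted p = 0.485).

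Markers of other cell types differed between these media too. The 7 fibroblast markers summed to between 143 and 171 CPM in P10 Serum/LIF and 229 and 456 CPM in P20 Serum/LIF, against 9.72 to 23.3 CPM in EMM and 2.89 to 6.32 CPM in 2i/LIF. Lum was at or under 3 counts in every passage Serum/LIF library. The 6 trophectoderm markers summed to between 324 and 670 CPM in passage Serum/LIF and between 54.2 and 167 CPM in the other media, with Elf5 at or under 3 counts in EMM and 2i/LIF. Not every marker followed its sum. Thy1 was at 16.6 to 22.9 CPM in P10 EMM against 7.35 to 10.7 CPM in P10 Serum/LIF and made up nearly all of the P10 EMM fibroblast sum, and Cdx2 was at 14.4 to 19.1 CPM in P10 2i/LIF against 2.97 to 4.32 CPM in P10 Serum/LIF. The 6 primitive endoderm markers summed to 5.89 to 6.17 CPM in P10 EMM and 4.75 to 5.53 CPM in P10 2i/LIF, and to 8.35 to 13.5 CPM in P20 EMM and 4.21 to 4.30 CPM in P20 2i/LIF, with no overlap of the sums at either passage. At P10 Pdgfra and Sox17 went against the sum, Pdgfra with 0.824 to 1.17 CPM in EMM and 2.42 to 3.24 CPM in 2i/LIF and Sox17 with 0.206 to 0.4 CPM and 0.835 to 1.51 CPM. In Serum/LIF the sum was 4.30 to 6.80 CPM at P10 and 7.14 to 9.78 CPM at P20. The part these cells or transcripts have in the comparisons of media was not tested, and in bulk RNA fewer cells of a type and less RNA per cell cannot be told apart.

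Against Serum/LIF at P10, EMM cells were called for 1 further member. Polg had 2760, 2791 and 2925 normalized counts in P10 Serum/LIF and 2291, 2252 and 2424 in P10 EMM, a log2 fold change of −0.28 ± 0.06 (adjusted p = 0.00130) that was −0.25 (adjusted p = 0.0112) without P10 Serum/LIF library 3. At P20 it was 0.03 ± 0.06, and the difference between passages was 0.31 ± 0.09 (adjusted p = 0.0179), short of the threshold. Polrmt showed a difference between passages of −0.48 ± 0.16 (adjusted p = 0.0333), with 0.21 ± 0.11 at P10 and −0.27 ± 0.11 at P20. Esrra was at −0.54 ± 0.17 (adjusted p = 0.0148) at P10 and −0.31 ± 0.16 (adjusted p = 0.14) at P20. With Ppargc1b, 1 member was higher and 1 lower at P10, against 18.7% and 18.7% of all genes tested. At P20, 1 member was higher and 0 lower, against 13.6% and 12.5%. For the difference between passages it was 0 higher and 0 lower by edgeR's quasi-likelihood test, against 8.28% and 6.43% of all genes, where 3 members had an unadjusted p under 0.05 and the Wald test of DESeq2 called 1, Polg.

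**Figure D3:**
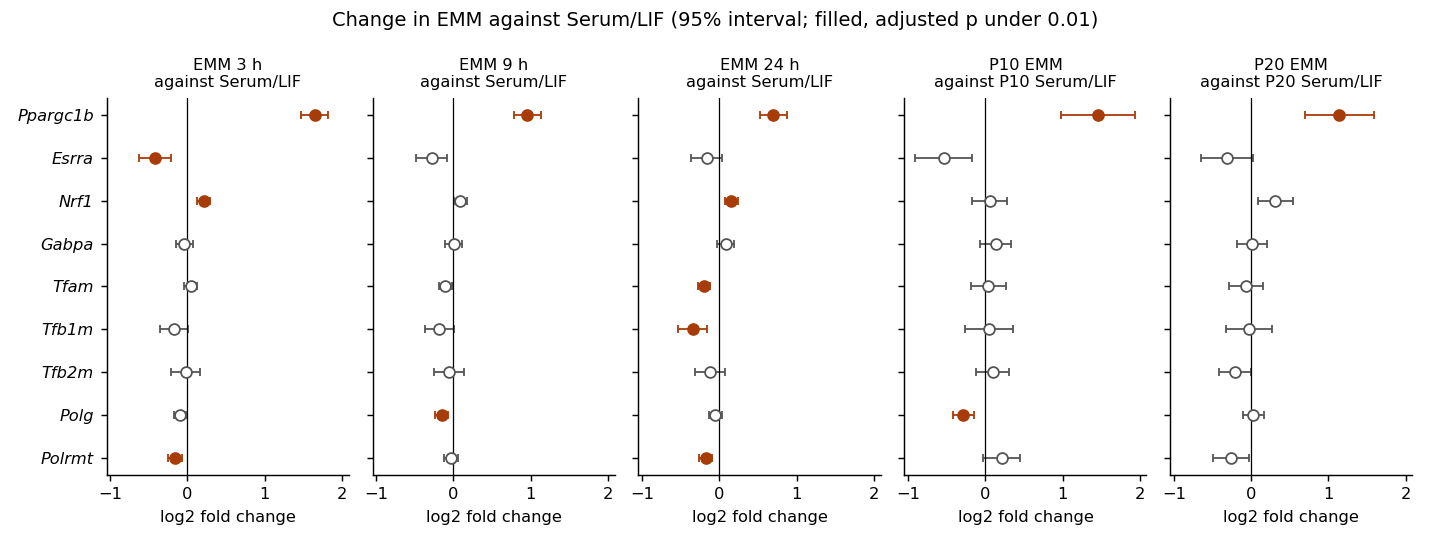
Log2 fold changes of 9 members in EMM against Serum/LIF with 95% intervals, at 3, 9 and 24 h and at P10 and P20; filled points had an adjusted p under 0.01. Ppargc1b is the top row and lies right of 0 in all 5 panels, from 0.70 to 1.65, and no other member is filled in more than 2 panels.

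In EMM against 2i/LIF the calls fell on mitochondrial factors. At P10, Tfam had 1764, 2092 and 2167 normalized counts in EMM, 1998, 1965 and 1872 in Serum/LIF and 1570, 1184 and 1169 in 2i/LIF. Every 2i/LIF library was below every library of the other media. Tfam was higher in EMM than in 2i/LIF by 0.62 ± 0.11 on the log2 scale (SE; adjusted p = 8.56e-05) and lower in 2i/LIF than in Serum/LIF, at −0.58 ± 0.11 (adjusted p = 1.33e-04). Without 2i/LIF library 1, the highest of its group, these values were 0.77 and −0.73.

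At P20 Tfam passed in no comparison of media. The counts were 1460, 1523 and 1456 in EMM, 1682, 1476 and 1492 in Serum/LIF and 1718, 1410 and 1558 in 2i/LIF, and the groups overlapped. The effect of EMM against 2i/LIF differed between passages, P20 minus P10, by a log2 value of −0.69 ± 0.15 (adjusted p = 0.00120), the one member for which the passages differed past the threshold. It was −0.84 without P10 2i/LIF library 1 and −0.63 without P20 2i/LIF library 1. For that difference 0 members were higher and 1 lower, against 16.9% and 15.4% of all genes tested.

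Tfb1m and Tfb2m, which descend from one methyltransferase and have separate tasks, differed in opposite directions between EMM and 2i/LIF at both passages. Tfb1m had 175.8, 133.6 and 204.4 normalized counts in P10 2i/LIF, 238.7, 307.0 and 213.0 in P10 EMM and 244.0, 251.0 and 240.6 in P10 Serum/LIF. At P20 it had 169.2, 215.0 and 188.7 in 2i/LIF, 281.9, 289.8 and 281.4 in EMM and 264.7, 327.1 and 272.8 in Serum/LIF. No 2i/LIF library overlapped either of the other media at its own passage. EMM was higher than 2i/LIF by 0.55 ± 0.15 (adjusted p = 0.00517) at P10 and 0.56 ± 0.15 (adjusted p = 0.00323) at P20, and the log2 fold change of 2i/LIF against Serum/LIF was −0.50 ± 0.15 (adjusted p = 0.00745) and −0.58 ± 0.15 (adjusted p = 0.00282).

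Each of these 4 Tfb1m calls was lost on leaving out some single library. Without 2i/LIF library 1 of the passage the log2 fold changes were 0.56 and 0.49 in EMM against 2i/LIF at P10 and P20, and −0.51 and −0.51 in 2i/LIF against Serum/LIF. At P10 the call against EMM was lost without 2i/LIF library 1 or 2 or EMM library 2, with library totals alone and in a fit of those groups alone (adjusted p between 0.0110 and 0.0452). The P10 call against Serum/LIF was lost without 2i/LIF library 1 or 2, without any 1 Serum/LIF library and in a fit of those groups alone (adjusted p between 0.0139 and 0.0514). At P20 the call against EMM was lost without 2i/LIF library 1 or 3 or EMM library 2 (adjusted p between 0.0120 and 0.0143), and the call against Serum/LIF without 2i/LIF library 1 or 3 or Serum/LIF library 2 (adjusted p between 0.0118 and 0.0236). The direction held throughout.

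Tfb2m was highest in 2i/LIF. Its normalized counts at P10 were 422.2, 432.8 and 483.8 in 2i/LIF, 335.1, 358.5 and 316.1 in EMM and 326.0, 320.4 and 300.8 in Serum/LIF. At P20 they were 425.3, 375.3 and 496.2 in 2i/LIF, 312.6, 320.6 and 289.4 in EMM and 339.3, 357.1 and 372.9 in Serum/LIF. The log2 fold change of EMM against 2i/LIF was −0.41 ± 0.10 (SE; adjusted p = 0.00256) at P10 and −0.49 ± 0.10 (adjusted p = 3.88e-04) at P20, and 2i/LIF was higher than Serum/LIF by 0.50 ± 0.10 (adjusted p = 3.20e-04) at P10 and, short of the threshold, 0.28 ± 0.10 (adjusted p = 0.0262) at P20. Without 2i/LIF library 1 the difference from EMM was −0.45 at P10 and −0.50 at P20, and that from P10 Serum/LIF was 0.54. The P10 call against EMM was lost (adjusted p between 0.0106 and 0.0190) without 2i/LIF library 3, EMM library 1 or EMM library 3, with no filter and in a fit of those groups alone.

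Polg was lowest in 2i/LIF at P10, with 2100, 1842 and 1965 normalized counts. This was −0.52 ± 0.06 against Serum/LIF (adjusted p = 1.44e-06), and EMM was higher than 2i/LIF by 0.24 ± 0.06 (adjusted p = 0.00449). Without 2i/LIF library 1 these were −0.57 and 0.28. The call against EMM was lost without 2i/LIF library 2 or 3 or EMM library 1 or 3, with library totals alone, with no filter and in a fit of those groups alone (adjusted p between 0.0102 and 0.0636). At P20 Polg spanned 1925 to 2133 normalized counts over all 9 libraries and the media overlapped. Fanci, the gene that shares exon bases with Polg, had its own values: its log2 fold change in 2i/LIF against Serum/LIF was −0.30 ± 0.09 (adjusted p = 0.0110) at P10 and 0.58 ± 0.09 (adjusted p = 4.16e-05) at P20, and −0.26 and 0.67 without 2i/LIF library 1.

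Nrf1 was higher in P20 2i/LIF than in P20 Serum/LIF by 0.41 ± 0.11 (adjusted p = 0.00362), with 1031, 1425 and 1368 against 958.0, 1049 and 884.7 normalized counts, and these groups overlapped through 2i/LIF library 1. Without that library the value was 0.53 (adjusted p = 1.07e-04). Nrf1 lies on chromosome 6, where the median over 746 tested genes was 0.33 on the log2 scale in the same comparison, and relative to that median Nrf1 was at 0.08. The call was also lost without P20 2i/LIF library 2 or 3 or P20 Serum/LIF library 1 or 3, with library totals alone, with at least 10 counts asked of every library and in a fit of those groups alone (adjusted p between 0.0117 and 0.0411). In EMM against Serum/LIF at P20 Nrf1 was at 0.31 ± 0.11 (adjusted p = 0.0272). Gabpa and Polrmt did not pass in any comparison of the passage experiment, with log2 fold changes between −0.03 and 0.13 for Gabpa in the 6 comparisons of media.

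Counted together, EMM differed from 2i/LIF at P10 in 3 of 9 tested members upward and 1 downward, against 22.9% and 22.2% of all genes. At P20, 1 was higher and 1 lower, against 25.7% and 22.9%. In 2i/LIF against Serum/LIF 2 were higher and 3 lower at P10, against 26.4% and 25.6%, and 2 were higher and 1 lower at P20, against 21% and 23.2%. The members' median log2 fold changes in these 4 comparisons were 0.10, −0.05, 0.03 and 0.01, beside 0.01, 0.02, 0.02 and −0.01 for all genes.

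**Figure D4:**
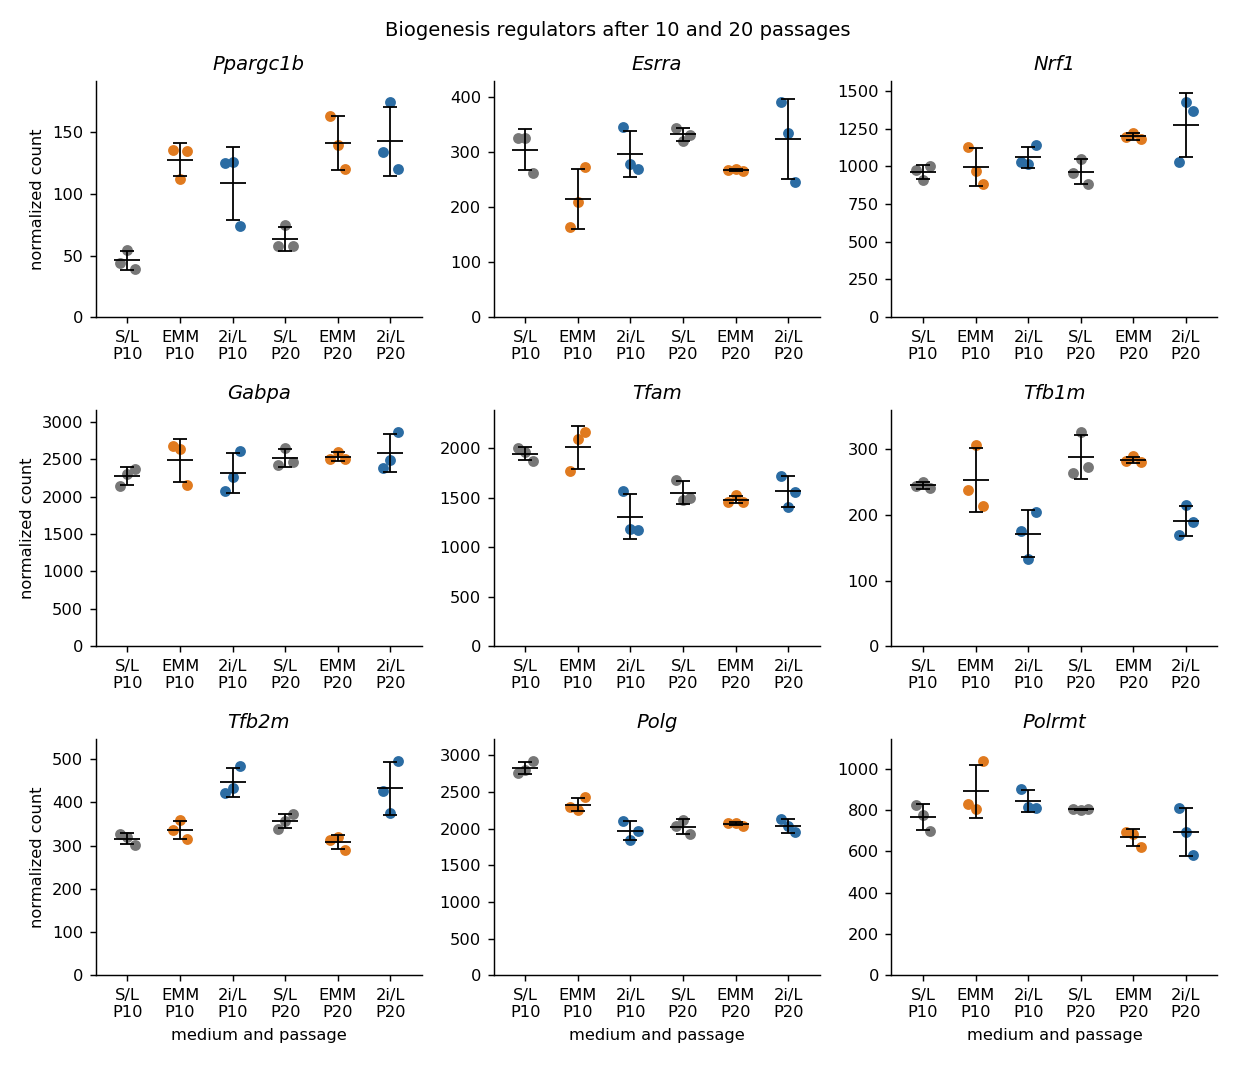
Normalized counts of 9 members in each of the 18 passage libraries (points, in title order; S/L, Serum/LIF; 2i/L, 2i/LIF), with the group mean and SD (n = 3) in black and each vertical axis from 0. Ppargc1b is low in Serum/LIF (39.3 to 75.0), Tfb1m low and Tfb2m high in 2i/LIF, and Tfam low in 2i/LIF at P10 only.

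The members differed in their pattern over the 10 groups. With each table centred on its own mean, the correlation of group means (log2 CPM, Pearson, 10 groups that share controls and a table) was 0.77 between Tfam and Polg and 0.76 between Ppargc1b and Nrf1, and −0.76 between Tfb1m and Tfb2m and −0.79 between Nrf1 and Polrmt. The genes most like Ppargc1b among 14651 tested in both tables were Sf3a2, Ncoa5 and Tmem56 (r = 0.974, 0.963 and 0.962). Esrra was most like Bmpr2, Mmgt2 and Ccdc160 (0.960, 0.959 and 0.952), and Tfam most like Eif6, Gm14150 and Gm17018 (0.982, 0.971 and 0.968). These values describe likeness over few points.

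Other genes of the pathway were taken from 5 lists, and their counts are to be read against all genes tested, of which 21.8% were higher and 22.2% lower in EMM at 24 h and 13.6% and 12.5% at P20. Transcriptional partners, which act with the PGC-1 proteins, NRF1 or GABP, had 6 of 14 tested genes higher and 3 lower in EMM at 24 h, and 2 of 13 higher and 1 lower in EMM at P20, each against Serum/LIF, the latter near the shares over all genes. The largest rise at 24 h was that of Perm1, a muscle-enriched regulator, with 1.12 ± 0.29 (adjusted p = 0.00398) from a low level, 23.9 ± 4.52 normalized counts against 10.9 ± 0.888 (SD, n = 3). The largest fall was that of Gabpb1, an activating GABP subunit, with −0.34 ± 0.05 (adjusted p = 7.00e-05), while the related subunit Gabpb2 was at 0.39 ± 0.05 (adjusted p = 5.15e-06). At P20 Gabpb2 had the largest rise with 0.51 ± 0.08 (adjusted p = 9.76e-05), and Rxra, the retinoid X receptor, the only fall with −0.58 ± 0.12 (adjusted p = 9.83e-04).

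Genes of mitochondrial DNA maintenance were lower at 24 h in 7 of 15 cases and higher in 0, with a median log2 fold change of −0.18. The largest fall was that of Top1mt, the mitochondrial topoisomerase, with −0.78 ± 0.08 (adjusted p = 9.43e-07). At P20, 0 of the 15 were higher and 1 lower, Dna2, a nuclease and helicase, with −0.43 ± 0.08 (adjusted p = 5.08e-04), and the median was 0.10. Genes of mitochondrial RNA synthesis and processing were higher in 2 of 22 cases and lower in 4 at 24 h, where Fastkd2 rose most (0.29 ± 0.04, adjusted p = 1.97e-05) and Tefm, the elongation factor of POLRMT, fell most (−0.43 ± 0.06, adjusted p = 1.95e-05). At P20 they were higher in 4 of 23 cases and lower in 0, with the largest rise in Fastkd3 (0.56 ± 0.08, adjusted p = 5.42e-05).

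Textbook targets of NRF1 or GABP, mostly subunits of the respiratory chain, were higher in 7 of 13 cases and lower in 1 at 24 h, with a median of 0.18. Alas1, the first enzyme of haem synthesis, rose most (0.24 ± 0.05, adjusted p = 0.00174), and Tomm70a, an import receptor, was the one that fell (−0.15 ± 0.04, adjusted p = 0.00354). At 3 h 0 of the 13 passed edgeR's quasi-likelihood test, against 16.3% higher and 18.2% lower over all genes, and 3 had an unadjusted p under 0.05. At P20 1 was higher and 0 lower, Tomm20 with 0.54 ± 0.07 (adjusted p = 1.69e-05), and the median was 0.09. Import genes and chaperones were higher in 1 of 11 cases, Timm50 (0.21 ± 0.04, adjusted p = 8.34e-04), and lower in 5 at 24 h, where Hspd1, the matrix chaperonin, fell most (−0.28 ± 0.03, adjusted p = 4.79e-06). At P20, 2 were higher and 0 lower, and Timm50 led with 0.44 ± 0.07 (adjusted p = 1.03e-04).

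Of the 13 mRNAs encoded by mitochondrial DNA 7 passed the filter in the time course, of which 6 were higher at 3 h, 3 at 9 h and 4 at 24 h (16.3%, 18.5% and 21.8% of all genes). The rest failed the filter on low counts, while all 13 passed it in the passage experiment at mostly lower total counts. Whether mitochondrial reads were counted alike in both tables was not tested, so these rises are uncertain. In the passage experiment all 13 were tested, with 9 higher and 0 lower in 2i/LIF against Serum/LIF at P10 (median log2 fold change 1.53; 26.4% and 25.6% of all genes). Without P10 2i/LIF library 1 it was 12 higher. At P20 the same contrast gave 0 by edgeR's test, none with an unadjusted p under 0.05 and a median of 0.03, and without P20 2i/LIF library 1 also 0, with 1 at an unadjusted p under 0.05 and a median of 0.37. In EMM against 2i/LIF 5 were lower at P10 and 1 at P20 (22.2% and 22.9% of all genes), with medians of −1.03 and 0.22. Without 2i/LIF library 1 these counts were 8 and 0 and the medians −1.41 and −0.16, so that the P20 median changed sign. There were 0 by edgeR's test in EMM against Serum/LIF at P10 and at P20, where 1 and 2 had an unadjusted p under 0.05.

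**Figure D5:**
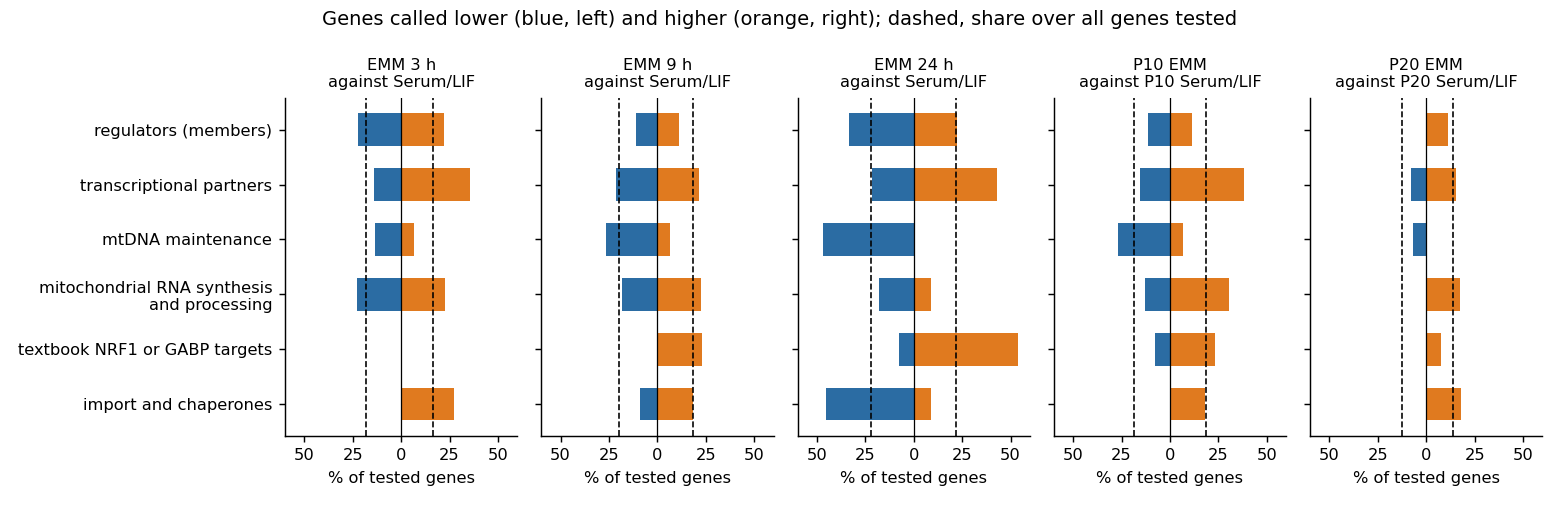
Percent of tested genes called higher (orange, to the right) and lower (blue, to the left) at an adjusted p under 0.01 in EMM against Serum/LIF, for the 9 tested regulators and the 5 lists; dashed lines mark the share over all genes tested. The bars of mtDNA maintenance (7 of 15 lower) and of NRF1 or GABP targets (7 of 13 higher) at 24 h reach furthest past the dashed lines.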

How the data were processed

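RNA-seq of 30 libraries (10 groups of 3) was used. For the time course the authors deposited raw counts per gene, and the submitters' notes name STAR, featureCounts and mm10, while the study's methods name HTSeq. The passage table holds estimated counts per gene as the authors deposited them, with STAR, Salmon and mm10 named in the notes, of which 9.98% were not whole and were rounded. The study's methods name the UCSC Table Browser as the source of intron and exon intervals. The annotation release and the strand setting are not given in the sources used here. Replicates came from independent experiments according to the study's methods. Identifiers were named from GENCODE M21 (52483 and 55227 matched). No column was left unmatched to a sample.

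Each table was fitted separately in edgeR 4.0.16 (R 4.3.3) with TMM scaling, filterByExpr and the quasi-likelihood test, all groups in one model, and p was adjusted by Benjamini-Hochberg over 16049 and 16054 genes. A gene was called at an adjusted p under 0.01. Normalized counts are counts scaled by TMM within a table. Errors are SE for log2 fold changes and SD for levels. The fit was tested on simulated data. The floor of 3 counts covers counting error only. The alternatives were DESeq2 1.42.0, other scalings, filters and thresholds, fits of the compared groups alone, replicate blocks, chromosome centring and single libraries left out.

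The members and lists were chosen with earlier results of these data known. All 10 members are named, and from each list the largest rise and fall in EMM at 24 h and at P20. Genes that share exon bases with a member were added for their overlap. Over all groups same-numbered libraries did not deviate together (median r 0.0067, 0.023 and 0.0033 by title and description number in the time course and by title in the passage table), so the numbers were not taken to pair samples. The 2i/LIF libraries were an exception: P10 and P20 libraries of the same number had r of 0.299, 0.134 and 0.224, and those of different numbers at most 0.052, so a fit with a block for these alone was added after the data were seen. In the time course r was above 0.1 in 5 of 18 pairs with the same title number and 5 of 36 others. EMM 24 h library 1 had r of 0.28 with Serum/LIF library 2 and −0.33 with EMM 9 h library 3. EMM 9 h library 3 had 0.21 with Serum/LIF library 3 and 0.20 with EMM 24 h library 3. What these libraries shared is not given and was not modelled. The Serum/LIF libraries labelled 0 h are described as 24 h of culture in the treatment text.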

Additional observations from a re-analysis of the deposited data

Results flagged for a closer look

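By edgeR's quasi-likelihood test of the difference itself, Ppargc1b and Tfam differed between times in EMM. For Tfam the effect of EMM against 2i/LIF also differed between passages. Ppargc1b was lower at 24 h than at 3 h of EMM, with a log2 difference of −0.95 (edgeR, adjusted p = 1.12e-07), and for Tfam that difference was −0.24 (adjusted p = 7.81e-05). The log2 fold change of Tfam in EMM against 2i/LIF at P20 minus that at P10 was −0.69 (adjusted p = 0.00120). With 3 libraries a group, no test for a single outlying value was made on the members.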

How the results depend on the processing

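Of 489 alternative values of the 31 called log2 fold changes 415 kept direction and call, 72 kept the direction and lost the call, 2 moved and 0 reversed. Every Ppargc1b call was kept under each alternative, its 3 h value between 1.57 and 1.73. The number of members called changed by more than 1.5 times as follows. A replicate block by description number gave 2 at 3 h in place of 4, losing Esrra (adjusted p = 0.0105) and Polrmt (0.0212), and also lost Nrf1 at 24 h (0.0143), while block fits by title number moved no count that far. A replicate block of the 2i/LIF numbers alone, added after the data were seen, kept every call of the passage experiment and gave 2 in EMM against Serum/LIF at P20 in place of 1, with Nrf1, and 1 for its difference between passages in place of 0, with Polg. Fits of the compared groups alone gave 1 at 9 h (main 2), 2 at 24 h (main 5), 1 in EMM against 2i/LIF at P10 (main 4), 4 in EMM against Serum/LIF at P20 (main 1) and 1 for its difference between passages (main 0). An adjusted p under 0.05 gave 4 at 9 h, 2 at P20 and 2 for that difference, and DESeq2 gave 1 for it. Leaving out single libraries gave 2 to 3 at 3 h, 1 to 2 at 9 h, 2 to 5 at 24 h, 1 to 3 in EMM against Serum/LIF at P10, 2 to 3 in EMM against 2i/LIF at P10, 1 to 2 at P20 and 1 to 3 in 2i/LIF against Serum/LIF at P20. The cause was not tested. Scaling by library totals moved the median log2 fold change of all genes by over 0.1 in 1 comparison, 2i/LIF against Serum/LIF at P20, from −0.01 to −0.12. Of the 77 log2 fold changes not called, 28 changed sign under some alternative, none past the threshold. Among their 1311 alternative values 37 gained a call, 28 of them at settings other than an adjusted p under 0.05. Depth limits Ppargc1a in every library.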
